A study of Mus musculus with 12 samples.

Results

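The 10 genes described here are Cd74, H2-Aa, H2-Ab1, H2-Eb1, C1qa, C1qb, C1qc, Csf1r, Cd68 and Lyz2, which are known for their expression in macrophages and other antigen-presenting cells. They were chosen by name, with earlier results of these data known, and all 10 were found among the 28643 gene symbols used. The study deleted Igf2bp3, an RNA-binding protein of late spermatocytes and spermatids, and measured poly(A) RNA in round spermatids, the haploid germ cells that follow meiosis. Cells were sorted from the testes of 8-week-old males in the presence of cycloheximide, which holds ribosomes on their mRNAs. RNA-seq was made from the whole extract and RNC-seq from the RNA carried by polysomes, that is by several ribosomes at a time. The groups were Igf2bp3+/- males, which keep 1 intact copy and served as controls, and Igf2bp3-/- males, each with 3 RNA-seq and 3 RNC-seq libraries, 12 in all.

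The deletion is a frameshift made by Cas9 in C57BL/6 zygotes that were carried by KM females, and the strain of the 8-week-old males is not given further in the labels. By the study's methods, knockout males with impaired fertility were selected for these experiments, so that this selection and the genotype cannot be told apart; matings between homozygous parents were also used to produce knockout males, and whether they gave the males sequenced is not stated. The columns named WT in the table are Igf2bp3+/- by the labels. No label names a batch or a date. The study describes the libraries of a group as biological replicates and sorted cells from each mouse, while the labels do not name the mouse behind a library.

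Macrophages of the testis lie mostly in the interstitium between the seminiferous tubules, beside the Leydig cells, and on the tubule wall. They take up and degrade material in lysosomes and can present peptides on MHC class II molecules, each built of an alpha and a beta chain. Cd74 encodes the invariant chain, which guides class II molecules to endosomes and blocks their groove until a peptide is loaded. C1qa, C1qb and C1qc encode the 3 chains of complement C1q, of which tissue macrophages are a main source. Csf1r encodes the receptor for CSF1 and IL34 on which macrophages depend, Cd68 a glycoprotein of their lysosomes, and Lyz2 the lysozyme of myeloid cells.

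Values are FPKM, fragments of a gene scaled by its transcript length and by the mapped fragments of the library. The table holds no counts, so depth was read from the spacing of low values: a value rises in steps of 1 fragment or read, and the steps placed 11 libraries at 0.375 to 0.564 of the depth of Igf2bp3-/- RNA-seq replicate 1. By these steps, 30 of the 120 values of the 10 genes rested on fewer than 10 steps. The steps of a gene were counted with its longest annotated transcript, and a shorter transcript would give fewer steps. Igf2bp3 itself lay at 31.4 to 38.6 FPKM in RNA-seq and 31.4 to 43.1 in RNC-seq. In RNA-seq all Igf2bp3-/- libraries lay below all Igf2bp3+/- libraries (means 31.9 and 36.7 FPKM), and in RNC-seq they overlapped. A level over the whole gene does not check a frameshift. The round spermatid marker list summed to 626 to 738 FPKM in Igf2bp3+/- and 828 to 976 in Igf2bp3-/- RNA-seq, and the elongating spermatid list to 8458 to 10857 and 9515 to 9726. The 10 genes made up 0.00127% to 0.00328% of all FPKM in a library.

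All 10 genes were low. Their means over the 12 libraries ran from 0.199 FPKM for Cd68 to 3.66 FPKM for H2-Ab1, and 7 of the 10 lay under 1 FPKM. H2-Ab1 stood above 71.2% of all genes and Cd68 above 39.0%. In Igf2bp3+/- RNA-seq the order was C1qb at 3.21 ± 0.712 FPKM (SD, n = 3), H2-Ab1 at 3.15 ± 0.411, Lyz2 at 1.12 ± 0.250 and H2-Eb1 at 0.608 ± 0.169. C1qc (0.451), Cd74 (0.389), H2-Aa (0.354), Csf1r (0.278), C1qa (0.131) and Cd68 (0.130) followed in mean FPKM, and among these 6 the neighbours lay closer together than the larger of their SDs, apart from Csf1r and C1qa. H2-Ab1, Lyz2 and H2-Eb1 were each further apart than that. C1qb and H2-Ab1 did not differ beyond their spread, and these 2 genes led the 10 in all 12 libraries. In Igf2bp3-/- RNA-seq Cd74 stood next, at 1.75 ± 0.106 FPKM, level with Lyz2 at 1.70 ± 0.208.

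**Figure D1:**
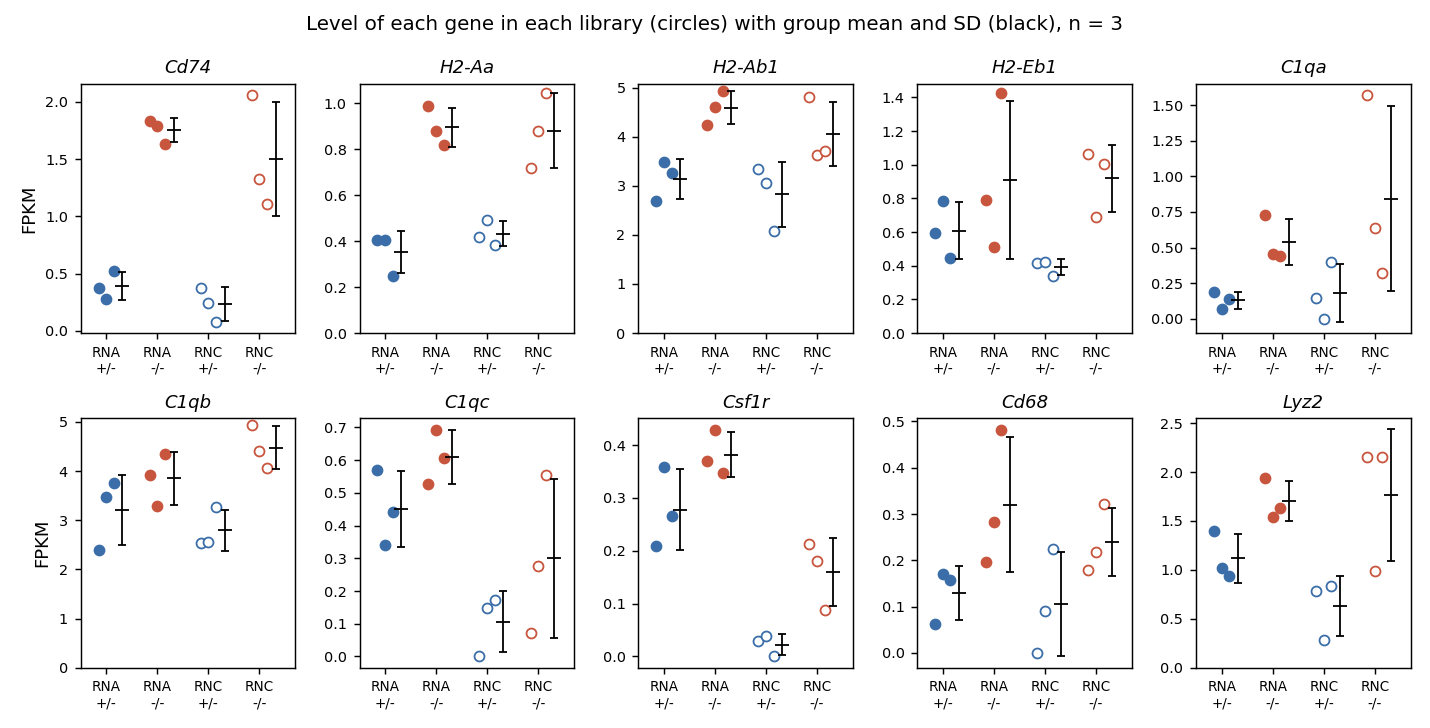
FPKM of each of the 10 genes (y axis, linear, a scale for each gene) in the 12 libraries, with filled circles for RNA-seq, open circles for RNC-seq, blue for Igf2bp3+/- and red for Igf2bp3-/-; black bars give the mean and SD of 3 libraries. The red circles of Cd74 lie between 1.11 and 2.06 FPKM and the blue ones between 0.0801 and 0.519, while the groups of C1qc overlap in each assay.

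The genotype comparison asked which RNAs differ in the whole extract (RNA-seq) or on polysomes (RNC-seq) when Igf2bp3 is lost. Each gene was tested by limma on log2(FPKM + 0.1), a scale that understates changes of such low genes, and adjusted p-values cover all genes tested. In RNA-seq all 10 estimates were positive, with a median log2 change of 0.56 against 0.05 for all 20352 genes tested. Cd74 was the only 1 of the 10 with an adjusted p under 0.05 in limma; of all genes tested, 0.197% passed that limit as higher in Igf2bp3-/-. At an unadjusted p under 0.05 in limma, 6 of the 10 were higher, against 10.4% of all genes. The study's methods state a log2 change over 1.5 with an unadjusted p under 0.05, and its supplement a change over 1.5-fold with the same p; both were applied here to the limma fit. By the first limit Cd74 was again the only 1 of the 10, against 0.418% of all genes, and by the second 4 of the 10 were higher (Cd74, H2-Aa, C1qa and Cd68), against 2.92% of all genes. For 6 of the 10, all 3 Igf2bp3-/- libraries lay above all 3 Igf2bp3+/- libraries, against 14.1% of all genes. These were Cd74, H2-Aa, H2-Ab1, C1qa, Cd68 and Lyz2.

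In RNC-seq 9 of the 10 had a mean above the filter of 0.1 FPKM, and Csf1r did not; the 9 tested passed it on their Igf2bp3+/- libraries alone as well. All 9 estimates were positive, with a median log2 change of 0.88 against 0.13 for all 19051 genes tested. None of the 9 had an adjusted p under 0.05 in limma, where 0.0787% of all genes were called higher, and 6 of the 9 were higher at an unadjusted p under 0.05 against 5.36% of all genes. With a log2 change over 1.5, Cd74 and C1qa passed, against 0.761% of all genes, and with a change over 1.5-fold 6 of the 9 passed (Cd74, H2-Aa, H2-Eb1, C1qa, C1qb and Lyz2), against 4.73% of all genes. Without overlap of the libraries, Cd74, H2-Aa, H2-Ab1, H2-Eb1, C1qb and Lyz2 were higher in Igf2bp3-/-, 6 of the 9 against 9.44% of all genes. The assays draw on the same kind of extract, so the RNC-seq values are not independent support for those of RNA-seq. In bulk libraries more cells of a type and more RNA per cell cannot be told apart, for any of the 10 genes.

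**Figure D2:**
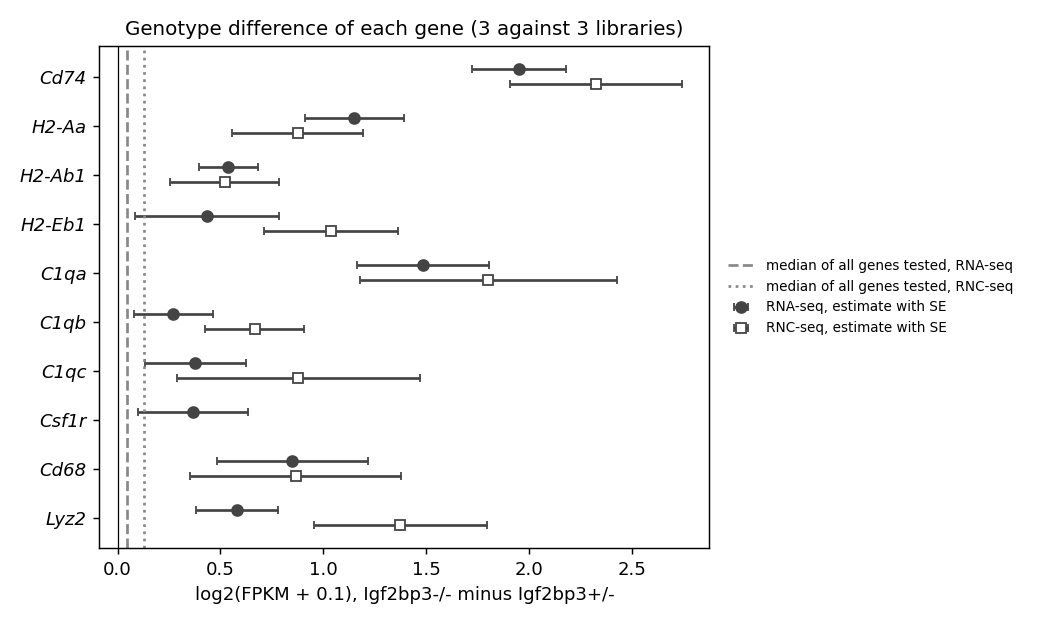
Difference of Igf2bp3-/- minus Igf2bp3+/- in log2(FPKM + 0.1) (x axis) for each gene, with filled circles for RNA-seq, open squares for RNC-seq, bars for the SE from limma (3 against 3 libraries), and lines for the median of all genes tested, dashed for RNA-seq (0.05) and dotted for RNC-seq (0.13). Every estimate lies above 0, from 0.27 for C1qb in RNA-seq to 2.33 for Cd74 in RNC-seq; Csf1r has no RNC-seq estimate.

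H2-Ab1, H2-Aa and H2-Eb1 encode chains of the mouse class II molecules I-A and I-E and lie side by side in the MHC on chromosome 17 (GRCm38): H2-Ab1 at 34257689 to 34269419, H2-Aa at 34282744 to 34287823 on the minus strand, and H2-Eb1 at 34305867 to 34316674. Class II genes are read from promoters with an X box, whose second part resembles a cAMP response element, and a Y box, a CCAAT box read backwards; factors bound there recruit the transactivator CIITA. RefSeq promoter windows of 300 bases, from 250 before to 50 after the annotated start, were found for 6 of the 10 genes; Cd74, H2-Ab1, C1qa and Csf1r had no entry. The windows of H2-Aa and H2-Eb1 are shown because they share the Y box letters CTGATTGG. The polysome levels of H2-Aa and H2-Eb1 do not overlap between the genotypes. Of the genes whose windows lack these letters, C1qb and Lyz2 do not overlap there either, while C1qc and Cd68 do. In RNA-seq H2-Aa, Cd68 and Lyz2 do not overlap, while H2-Eb1, C1qb and C1qc do. A link between these letters and the levels was not tested. Capitals mark the Y box and, in H2-Aa, TGACGTCA, the letters of a cAMP response element. The windows are H2-Aa at chr17:34287774-34288073, minus strand, and H2-Eb1 at chr17:34305617-34305916, plus strand, both on GRCm38.p6.
H2-Aa: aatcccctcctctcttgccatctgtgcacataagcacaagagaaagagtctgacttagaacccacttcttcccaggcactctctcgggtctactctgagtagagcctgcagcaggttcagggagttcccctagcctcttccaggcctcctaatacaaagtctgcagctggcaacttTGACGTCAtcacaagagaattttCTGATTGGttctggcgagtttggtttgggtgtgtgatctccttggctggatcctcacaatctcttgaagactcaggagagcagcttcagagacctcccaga
H2-Eb1: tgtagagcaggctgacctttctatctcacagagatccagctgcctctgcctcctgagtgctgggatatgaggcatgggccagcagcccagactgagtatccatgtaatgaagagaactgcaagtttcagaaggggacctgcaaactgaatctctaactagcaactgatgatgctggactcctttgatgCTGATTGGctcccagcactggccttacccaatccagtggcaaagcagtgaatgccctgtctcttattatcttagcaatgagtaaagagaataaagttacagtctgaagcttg
The Y box starts 51 bases before the start of H2-Aa and 62 before that of H2-Eb1. On either strand, CTGATTGG occurred in 2 of the 6 windows and in 4.1% of 32851 promoter windows, and TGACGTCA in 1 of the 6 and 1.79% of all. The Y box letters contain CCAAT on the opposite strand, which alone was found in 37.4% of all windows. GAGGAAGT, the letters of a site of the macrophage factor PU.1, were found in the window of C1qc and in 3.2% of all windows. A match of letters is a description and does not show that a factor was bound.

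H2-Aa encodes the alpha chain of I-A. Its RNA-seq level was 0.407, 0.406 and 0.248 FPKM in Igf2bp3+/-, against 0.988, 0.878 and 0.819 in Igf2bp3-/-. The groups were far apart, and their means differed 2.53-fold, but the log2 change of 1.15 ± 0.24 (SE) did not pass in limma (unadjusted p = 0.00108, adjusted p = 0.144). On polysomes H2-Aa was at 0.418, 0.491 and 0.384 FPKM in Igf2bp3+/- and 0.717, 0.880 and 1.05 in Igf2bp3-/-. Again no library of one genotype reached the other, with a log2 change of 0.88 ± 0.32 (limma adjusted p = 0.735).

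H2-Ab1, the beta chain of I-A, had the highest mean over the 12 libraries of the 10 genes, with C1qb above it in the group means of Igf2bp3+/- RNA-seq and Igf2bp3-/- RNC-seq. It was at 2.69, 3.48 and 3.26 FPKM in Igf2bp3+/- RNA-seq and 4.25, 4.60 and 4.94 in Igf2bp3-/-, which do not overlap. On the FPKM scale this was the widest gap of the 10 genes in RNA-seq, 1.45 ± 0.310 (SE), although the ratio of the means was only 1.46. The log2 change was 0.54 ± 0.14 (limma adjusted p = 0.180). On polysomes the levels were 3.34, 3.06 and 2.09 against 4.81, 3.64 and 3.72 FPKM, the lowest Igf2bp3-/- library just above the highest Igf2bp3+/- library, with a log2 change of 0.52 ± 0.27 (limma adjusted p = 0.786). H2-Ab1 stood 6.61 to 13.2 times as high as H2-Aa in the Igf2bp3+/- RNA-seq libraries and 4.30 to 6.03 times as high in Igf2bp3-/-, although the proteins pair in equal numbers.

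H2-Eb1 encodes the beta chain of I-E, whose alpha chain is not made in C57BL/6 mice. In RNA-seq it was at 0.596, 0.783 and 0.445 FPKM in Igf2bp3+/- and 0.788, 0.509 and 1.43 in Igf2bp3-/-. The groups overlapped and replicate 3 of Igf2bp3-/- set the difference, a log2 change of 0.43 ± 0.35 (limma adjusted p = 0.573) that was 0.08 without that library. On polysomes H2-Eb1 was at 0.416, 0.421 and 0.337 against 1.06, 0.690 and 1.00 FPKM. These did not overlap, with a ratio of means of 2.35 and a log2 change of 1.04 ± 0.33 (limma unadjusted p = 0.00810, adjusted p = 0.648).

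Cd74, on chromosome 18 (GRCm38, 60803848 to 60812652), showed the widest relative difference of the 10 genes in RNA-seq. It was at 0.373, 0.276 and 0.519 FPKM in Igf2bp3+/-, against 1.83, 1.79 and 1.63 in Igf2bp3-/-, a 4.50-fold difference of means. The log2 change of 1.95 ± 0.23 (SE) passed in limma (unadjusted p = 1.75e-05, adjusted p = 0.0184). The call did not hold in every smaller fit: the adjusted p was 0.0530 without Igf2bp3+/- replicate 1 and 0.120, 0.107 and 0.126 without Igf2bp3-/- replicates 1, 2 and 3, while the log2 change stayed between 1.77 and 2.13. On polysomes Cd74 was at 0.376, 0.244 and 0.0801 FPKM in Igf2bp3+/- and 2.06, 1.33 and 1.11 in Igf2bp3-/-. The groups were far apart there too, with a ratio of means of 6.41 and a log2 change of 2.33 ± 0.42 (limma adjusted p = 0.0964); that adjusted p was 0.0400 without Igf2bp3+/- RNC-seq replicate 1. The Igf2bp3+/- RNC-seq values of Cd74 rested on 9.7, 8.6 and 2.1 steps, which limits how well the control level is known. A short RNA, Mir5107, shares 0.715% of the exonic bases of Cd74 on the same strand.

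C1qa, C1qb and C1qc lie together on the minus strand of chromosome 4 (GRCm38), C1qb at 136880129 to 136886187, C1qc at 136889804 to 136893065 and C1qa at 136895917 to 136898803. C1qa was at 0.186, 0.0685 and 0.137 FPKM in Igf2bp3+/- RNA-seq and 0.728, 0.456 and 0.442 in Igf2bp3-/-. The means differed 4.15-fold and the libraries did not overlap, with a log2 change of 1.48 ± 0.32 (limma adjusted p = 0.148); the Igf2bp3+/- values rested on 4.1, 1.8 and 3.9 steps. On polysomes C1qa was at 0.145, 0 and 0.401 FPKM against 1.57, 0.639 and 0.321. These groups overlapped, and the log2 change of 1.80 ± 0.62 (limma adjusted p = 0.703) had the largest SE of the 9 genes tested.

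C1qb was far above its partners. In RNA-seq it was at 2.41, 3.47 and 3.76 FPKM in Igf2bp3+/- and 3.92, 3.29 and 4.35 in Igf2bp3-/-, which overlap, with the smallest log2 change of the 10 genes, 0.27 ± 0.19 (limma adjusted p = 0.524). On polysomes the groups separated, at 2.54, 2.56 and 3.27 against 4.94, 4.42 and 4.07 FPKM. This was the widest gap of the 10 genes on the FPKM scale in RNC-seq, 1.68 ± 0.350 (SE), and a log2 change of 0.67 ± 0.24 (limma adjusted p = 0.735). C1q holds its 3 chains in equal numbers, but C1qb was 12.9 to 50.7 times C1qa per library in Igf2bp3+/- RNA-seq and 5.38 to 9.85 times in Igf2bp3-/-. Against C1qc it was 4.21 to 10.2 times as high in Igf2bp3+/- RNA-seq and 4.74 to 7.44 times in Igf2bp3-/-, ranges that overlap. The cause of the unequal levels was not tested.

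C1qc overlapped between the genotypes in each assay. Its RNA-seq levels were 0.571, 0.340 and 0.441 FPKM in Igf2bp3+/- and 0.526, 0.693 and 0.608 in Igf2bp3-/-. The log2 change was 0.38 ± 0.25 (limma adjusted p = 0.483). On polysomes C1qc was lower in both genotypes, at 0, 0.147 and 0.174 against 0.0704, 0.275 and 0.555 FPKM, again overlapping, with a log2 change of 0.88 ± 0.59 (limma adjusted p = 0.831). At most 14.4 steps lay behind any of these RNC-seq values.

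Lyz2, on the minus strand of chromosome 10 (117277331 to 117282321), lies beside a close copy, Lyz1 (117287797 to 117292868), so reads could in part be shared; Lyz1 was listed at 0 in all 6 RNA-seq libraries and reached 0.300 FPKM in RNC-seq. Lyz2 was at 1.40, 1.02 and 0.935 FPKM in Igf2bp3+/- RNA-seq and 1.94, 1.54 and 1.63 in Igf2bp3-/-. The libraries did not overlap, with a ratio of means of 1.52 and a log2 change of 0.58 ± 0.20 (limma unadjusted p = 0.0182, adjusted p = 0.240). On polysomes it was at 0.784, 0.282 and 0.838 against 2.15, 0.985 and 2.16 FPKM. All Igf2bp3-/- libraries again lay above, with a wider ratio of means, 2.78, and a log2 change of 1.37 ± 0.42 (limma unadjusted p = 0.00694, adjusted p = 0.632).

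Cd68, on the minus strand of chromosome 11 (69664213 to 69666153), had the lowest mean over the 12 libraries of the 10 genes, although Csf1r was lower in both RNC-seq groups. It was at 0.0629, 0.171 and 0.157 FPKM in Igf2bp3+/- RNA-seq and 0.197, 0.282 and 0.482 in Igf2bp3-/-, without overlap, for a log2 change of 0.85 ± 0.37 (limma unadjusted p = 0.0474, adjusted p = 0.314). On polysomes it was at 0, 0.0912 and 0.224 against 0.180, 0.218 and 0.321 FPKM, which overlap, with a log2 change of 0.87 ± 0.51 (limma adjusted p = 0.808). No value of Cd68 rested on more than 12.8 steps.

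Csf1r, on chromosome 18 (61100598 to 61132149), shares 15.1% of its exonic bases with Hmgxb3 on the opposite strand and is uncertain to that extent. In RNA-seq it was at 0.209, 0.359 and 0.266 FPKM in Igf2bp3+/- and 0.369, 0.429 and 0.347 in Igf2bp3-/-. The groups overlapped by a narrow margin, with a log2 change of 0.37 ± 0.27 (limma adjusted p = 0.534). On polysomes Csf1r was at 0.0284, 0.0381 and 0 FPKM in Igf2bp3+/- and 0.212, 0.180 and 0.0872 in Igf2bp3-/-. Each Igf2bp3-/- library was higher, but Csf1r failed the filter in RNC-seq, its Igf2bp3+/- values rested on 2.4, 4.5 and 0 steps, and it was not tested there.

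The summed FPKM of the 10 genes was 8.90, 10.4 and 10.2 in Igf2bp3+/- RNA-seq, against 15.5, 14.5 and 16.7 in Igf2bp3-/-. In RNC-seq the sums were 8.05, 7.33 and 7.80 against 17.8, 13.2 and 14.4. The ratios of the means were 1.59 ± 0.171 in RNA-seq and 1.96 ± 0.319 in RNC-seq (SD from the replicates), and 1.64 and 2.26 without H2-Ab1. Scaled to the FPKM of all genes except CT010467.1, which held 5.68% to 19.4% of a library, the ratios were 1.45 and 1.80. By role, the antigen presentation genes summed to 1.81 times the control in RNA-seq and 1.89 times in RNC-seq, the complement genes to 1.32 and 1.82 times, and Csf1r, Cd68 and Lyz2 to 1.58 and 2.84 times. The most abundant gene weighed on each: the ratios were 2.63 and 3.12 for antigen presentation without H2-Ab1, 1.98 and 3.96 for complement without C1qb, and 1.72 and 3.14 for the last group without Lyz2. No p is given for these sums. Among the 10 genes, the log2 level of each across the 12 libraries had a Pearson r with the mean of the other 9 from 0.44 for C1qc to 0.85 for Cd74; these points share the genotype groups, the assays and the libraries.

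Translational efficiency (TE), the RNC-seq level over the RNA-seq level, asks whether the genotypes differ in how much of an RNA is on polysomes. The genotype difference of log2 TE passed in limma for 0 of the 9 genes tested, against 0.00543% of all 18414 genes in either direction. At an unadjusted p under 0.05 it passed for 0 of the 9 as well, against 7.13% of all genes, a count near that background. The estimates ran from -0.28 ± 0.36 (SE) for H2-Aa to 0.79 ± 0.51 for Lyz2, with limma adjusted p-values of 0.849 and 0.737 for these genes. The SEs leave room for sizeable differences in either direction, so TE was not shown to be equal.

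Within a genotype, the RNC-seq level was set against the RNA-seq level. In Igf2bp3+/-, C1qc was the only 1 of the 9 genes lower on polysomes by the adjusted limit, with a log2 difference of -1.52 ± 0.48 (limma adjusted p = 0.0196), against 25.2% of all genes, so the count is not above the background. Without Igf2bp3+/- RNA-seq replicate 1 or RNC-seq replicate 1 the adjusted p of C1qc was 0.0653 or 0.0948. Lyz2 followed at -0.82 ± 0.36 (limma adjusted p = 0.0811) and Cd74 at -0.63 ± 0.35 (0.159 likewise). In Igf2bp3-/- 0 of the 9 were called lower by limma, against 14% of all genes, and C1qc was at -1.02 ± 0.48 (limma adjusted p = 0.131, unadjusted p = 0.0508). None of the 9 was called higher on polysomes, against 18.6% of all genes in Igf2bp3+/- and 12.5% in Igf2bp3-/-.

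**Figure D3:**
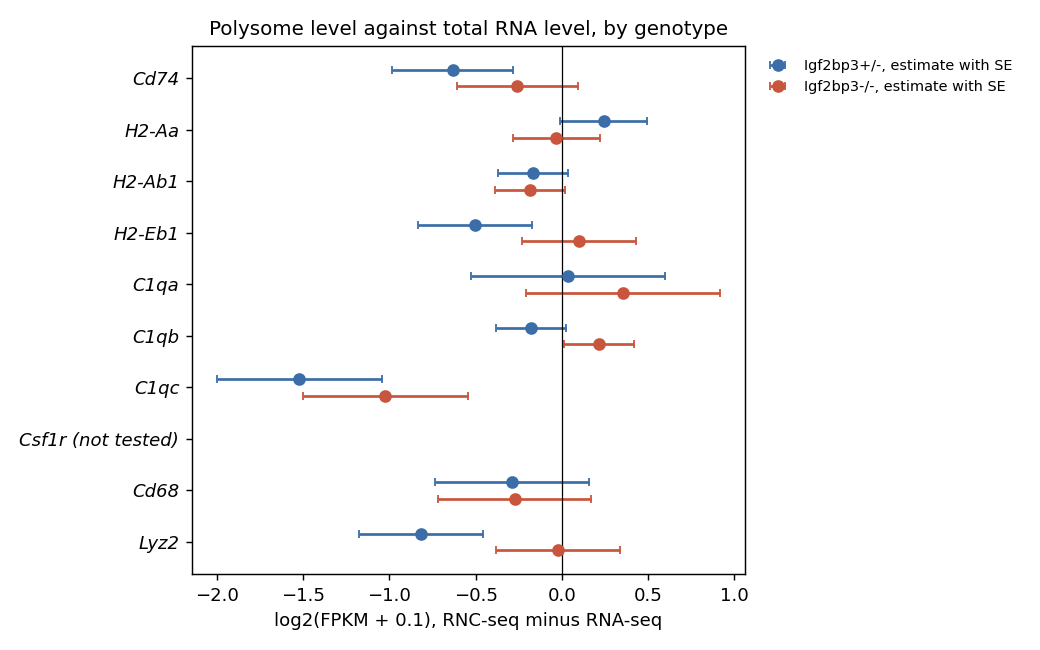
RNC-seq minus RNA-seq in log2(FPKM + 0.1) (x axis) for each gene, blue for Igf2bp3+/- and red for Igf2bp3-/-, with bars for the SE from the limma fit of all 12 libraries. C1qc lies lowest in both genotypes (-1.52 and -1.02), and the estimates of H2-Aa, H2-Ab1, C1qa, C1qb and Cd68 lie between -0.29 and 0.35.

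Other genes of these pathways were read from fixed lists. Of the class II pathway list (peptide loading and processing), 8 of 13 genes were in the table and 6 were tested in RNA-seq, with 0 called and all 6 estimates positive (median log2 change 0.39). H2-DMa and H2-DMb1, the chains of the peptide loader H2-DM, led it at mean levels of 3.28 and 1.43 FPKM, with log2 changes of 0.19 and 0.30. Ciita, H2-Oa, H2-Ob, H2-Eb2 and H2-Ea-ps were not analysed here. Of the other complement genes 6 were tested and 1 was called, Serping1, the C1 inhibitor, with a log2 change of 1.38 ± 0.20 (limma adjusted p = 0.0385), while C4b, the most abundant of them, was at -0.34 ± 0.16 (0.356 likewise). Of the class I pathway 5 genes were tested and 0 called; B2m, the light chain of class I, had a log2 change of 0.83 (limma adjusted p = 0.103) and Tapbp, the peptide loading factor tapasin, 0.21. Of the CSF1R ligands, Il34 was tested and not called (0.89, limma adjusted p = 0.475) and Csf1 failed the filter. In RNC-seq 0 genes of these 4 lists were called.

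In the list of other macrophage genes, none was called. Of 21 genes 18 were in the table, 10 were tested in RNA-seq and 0 were called, with a median log2 change of 0.18, and at an unadjusted p under 0.05 in limma 2 were higher. Aif1, at 309 to 507 FPKM, and the scavenger receptor Msr1, at 3.02 to 5.83 FPKM, stood far above the other 16, whose means ran from 0.0132 to 0.526 FPKM. Of the 18, 11 were at 0 in at least 1 library. Without Aif1 the list summed to 5.35 to 5.96 FPKM in Igf2bp3+/- and 6.93 to 8.94 in Igf2bp3-/- RNA-seq, and to 5.49 to 8.09 and 6.61 to 8.68 in RNC-seq. Msr1 was most of these sums, with means of 3.13 and 4.59 FPKM in RNA-seq and 5.06 and 4.73 in RNC-seq. The sums therefore say little about the other 16 genes. In RNC-seq 9 genes of the list were tested and 0 called, with 7 estimates positive and a median log2 change of 0.44. The pan-leukocyte list (Ptprc, Coro1a, Cd52 and Cd53) summed to 0.676 to 1.10 FPKM against 1.12 to 1.37 in RNA-seq, with 0 of 4 called.

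Some markers of other testis cells were also higher in Igf2bp3-/-, and others were not. The peritubular list summed to 1.55 to 1.73 FPKM in Igf2bp3+/- and 1.05 to 1.60 in Igf2bp3-/- RNA-seq. In RNC-seq it summed to 0.783 to 1.18 and 1.32 to 2.09. Tagln, of the peritubular list, had a log2 change of -1.70 in RNA-seq (limma unadjusted p = 0.00574, adjusted p = 0.190). Of the Leydig cell list 4 of 7 genes were higher in Igf2bp3-/- RNA-seq by limma's adjusted p: Hsd3b1, Insl3, Cyp17a1 and Hsd3b6, with log2 changes of 2.07, 1.42, 1.27 and 1.22. That list summed to 15.4 to 22.6 FPKM in Igf2bp3+/- and 48.6 to 55.0 in Igf2bp3-/- RNA-seq, and to 6.75 to 14.3 and 51.5 to 103 in RNC-seq, where Insl3 was the only gene called of all marker lists (log2 change 3.08, limma adjusted p = 0.0104). Dcn, of the stromal list, had a log2 change of 2.04, Clu, of the Sertoli list, 1.08, and Hbb-bs, an adult beta globin, 1.23, each the only gene called of the 5 tested in its list. The stromal list summed to 1.03 to 1.45 FPKM against 4.67 to 6.08 in RNA-seq, the Sertoli list to 4.63 to 5.68 against 9.17 to 9.48, and the red blood cell list to 6.58 to 7.22 against 11.8 to 14.3. Single genes weighed on these sums. Without Dcn the stromal list was at 0.344 to 0.443 against 1.32 to 1.64. Without Clu the Sertoli list was at 1.66 to 2.05 against 2.51 to 2.69. Its genes Sox9, Wt1 and Gata4 overlapped, and the log2 change of Rhox5 was -0.81. Without Hbb-bs the red blood cell list was at 3.90 to 4.56 against 6.29 to 7.33. Without Insl3 the Leydig list was at 4.46 to 5.32 against 11.3 to 12.8, and 1.75 to 3.22 against 6.59 to 9.32 in RNC-seq. The round spermatid list, of the sorted cells themselves, was also higher. It summed to 626 to 738 FPKM against 828 to 976 in RNA-seq and to 754 to 911 against 934 to 1230 in RNC-seq. All 5 of its RNA-seq estimates were positive, with 3 at an unadjusted p under 0.05 in limma. In the lists of spermatogonia (4 tested), spermatocytes, round spermatids and elongating spermatids (5 each), peritubular (4) and endothelial cells (1), dendritic cells (2), T and NK cells (5), and neutrophils and mast cells (1), 0 genes were called in RNA-seq; no B cell gene passed the filter there. In RNC-seq 1 B cell gene passed the filter, Igkc, an immunoglobulin light chain, which was not called (limma adjusted p = 0.0943). It was at 0 in all 6 Igf2bp3+/- libraries and at 0.160, 0.148 and 0.262 FPKM in Igf2bp3-/- RNA-seq and 1.03, 0.310 and 0.494 in Igf2bp3-/- RNC-seq. B cells also express class II genes and Cd74, and the B cell list summed to 0.0592 to 0.144 FPKM in Igf2bp3+/- and 0.596 to 1.39 in Igf2bp3-/- RNC-seq. The part of these other cells in the differences of the 10 genes was not tested.

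**Figure D4:**
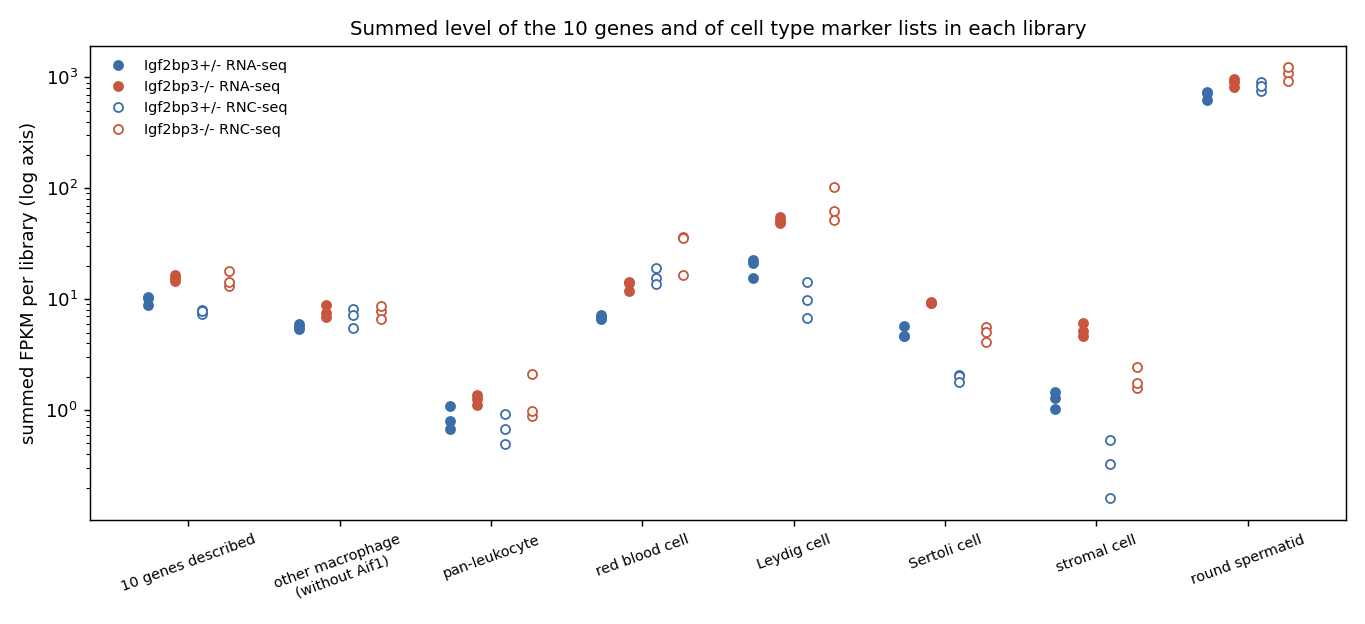
Summed FPKM per library (y axis, log scale) of the 10 genes and of 7 marker lists, each library a circle, filled for RNA-seq and open for RNC-seq, blue for Igf2bp3+/- and red for Igf2bp3-/-. The red circles of the 10 genes (13.2 to 17.8) lie above the blue ones (7.33 to 10.4). The same holds for the Leydig, Sertoli, stromal and round spermatid lists in each assay. The other macrophage list without Aif1, a sum that is mostly Msr1, overlaps in RNC-seq.

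The genes whose pattern over the 12 libraries was most like the mean log2 level of the 10 were sought among 12262 genes with a mean of at least 1 FPKM. They were Agt (Pearson r 0.974), Ephx1 (0.972), Cyp17a1 (0.959), Letm1 (0.958), Gstm2 (0.953), Akr1cl (0.951), Gstm1 (0.950), Gm21190 (0.945), Gm21083 (0.938) and Cfap99 (0.936). All 10 of these were also higher in Igf2bp3-/- RNA-seq at an adjusted p under 0.05 in limma, with log2 changes from 0.66 to 1.86, and 7 of the 10 in RNC-seq. Letm1, Gm21190, Gm21083 and Cfap99 lie on chromosome 5. Of the lists above, 16 of 18 other macrophage genes and 6 of 8 class II pathway genes had lower means and could not enter this search. The 12 points fall into the study's 4 groups, so a gene that differs by genotype in each assay scores high here whatever else it does.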

How the data were processed

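Poly(A) RNA of sorted round spermatids was sequenced as input (RNA-seq) and as polysome RNA (RNC-seq). The authors trimmed reads with Trim Galore 0.6.6, aligned them to GRCm38 with HISAT2 and deposited gene FPKM from StringTie 2.1.7; counts were not used here. The labels name a directional kit, whereas the methods name another library type, so use of strand is not certain. Of 28668 rows, 25 with date-like symbols (0.0995% of FPKM) were dropped. Genes with a mean above 0.1 FPKM were tested with limma 3.58.1 (R 4.3.3) on log2(FPKM + 0.1) with an intensity trend and Benjamini-Hochberg adjustment, after tests on simulated data. Positions are from GENCODE M21, promoters from RefSeq (GRCm38.p6). The members and lists were chosen with earlier results of these data known. The 10 genes were always named; a list gene was named if called or among the 2 most abundant of its list, and like-pattern genes by the highest r. Genes of the lists named for other reasons were chosen after their values were seen.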

Additional observations from a re-analysis of the deposited data

How the results depend on the processing

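The genotype estimate stayed positive for all 10 genes in RNA-seq and all 9 tested in RNC-seq in every alternative fit that kept the gene. The alternatives were another pseudocount, filter, scaling, library weights, no intensity trend, all 12 libraries in 1 fit, and each library left out. The filter at a mean above 1 FPKM kept only Cd74, H2-Ab1, C1qb and Lyz2 in RNA-seq and H2-Ab1, C1qb and Lyz2 in RNC-seq. In RNA-seq the count of called genes was 1, with a range of 0 to 1 when a library was left out and 4 by the supplement's limit (over 1.5-fold, p unadjusted), which was added after seeing the data. In RNC-seq it was 0, with a range of 0 to 1; it was 1 (Cd74) with all 12 libraries in 1 fit (adjusted p = 0.00733), 2 by the limit of the methods (log2 change over 1.5, p unadjusted) and 6 by that of the supplement. The TE count was 0 throughout. The count lower on polysomes in Igf2bp3+/- was 1; it was 2 with no filter, 0 with a mean above 1 FPKM, a filter that leaves C1qc out, 0 with quantile normalization, and 0 to 3 with a library left out. In Igf2bp3-/- it was 0, then 1 with no filter and 0 to 1 with a library left out. The ratio of summed levels ranged over 1.52 to 1.64 in RNA-seq and 1.79 to 2.08 in RNC-seq with a library left out. Scaled to the FPKM of all genes except CT010467.1, it was 1.45 and 1.80. That gene held 9.22% to 13.3% of FPKM in Igf2bp3+/- and 5.68% to 9.25% in Igf2bp3-/- RNA-seq. In RNC-seq it held 15.9% to 19.4% and 8.14% to 14.6%. Where no cause is given, the cause was not tested.

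With a replicate block, the called count was 0 in RNA-seq (Cd74 limma adjusted p = 0.114) and 1 in RNC-seq (Cd74, 0.0139 likewise). In these fits of 1 assay the block ties libraries of the same number across genotypes, which come from different mice. Deviations of such libraries from their group means correlated at -0.083 to 0.241. For polysome levels the block ties RNA-seq to RNC-seq within a genotype, and the count was 2 in Igf2bp3+/- (C1qc and Lyz2, both lower). The block did not change the other counts. The methods draw input and polysome RNA from 1 extract, but no label ties numbers to mice, and the deviations of an RNA-seq library and the RNC-seq library of its number correlated over 12265 genes at only -0.104 to 0.205, so the numbers were not taken as pairs. Depth limits the lowest values: 4 of the 120 were 0, all in Igf2bp3+/- RNC-seq.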
